A study of Mus musculus with 6 samples.

Results

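The genes of MHC class I antigen presentation were followed in induced T (iT) cells, as 10 members of the 23420 rows of the expression table. They were chosen by symbol: the heavy chains H2-K1, H2-D1, H2-T23, H2-Q4 and H2-Q7, the light chain B2m, the peptide transporter subunits Tap1 and Tap2, the loading factor Tapbp and the transcriptional activator Nlrc5. All 10 were found as rows. The data were RNA-Seq of 3 libraries of CD4SP cells, single-positive for CD4, and 3 of CD8SP cells, single-positive for CD8, each from 1000 sorted spleen cells. Both populations descended from embryonic stem cells of C57BL/6 background that carry a doxycycline-inducible Runx1-p2a-Hoxa9 cassette at Rosa26 (iR9-ESC), and both grew in B-NDG mice, an immunodeficient strain without T, B or NK cells of its own that retains host myeloid and stromal cells. The sort took CD45.2+ cells negative for lineage markers, Ter119 and CD11b among them, that were positive for CD4 or CD8, with no gate on CD3. No untransplanted or natural T cell library was part of the comparison, and both populations carried the same cassette. The study describes its libraries as biological replicates, but neither it nor the labels say whether they came from separate mice, so the p-values below measure only the spread between these libraries.

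MHC class I molecules display short peptides from inside the cell to CD8 T cells. The proteasome cuts proteins into peptides, the TAP transporter (Tap1 with Tap2) carries them into the endoplasmic reticulum, and tapasin (Tapbp) holds the empty heavy chain at the transporter until a peptide fits. A heavy chain needs beta-2 microglobulin (B2m) to leave for the surface. The classical heavy chains H2-K1 and H2-D1 present peptides to CD8 T cells, whereas the nonclassical chains H2-T23 (Qa-1), H2-Q7 (a Qa-2 chain) and H2-Q4 vary less between strains. Nlrc5 is the transactivator that drives most of these genes in lymphocytes, and interferon gamma raises them further. T cells are known for high class I levels.

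Expression is given in TPM, a length-corrected level scaled to a fixed total in each library, so levels can be compared between genes but each value depends on what else the library holds. Fold changes are log2 differences of CD4SP over CD8SP on log2(TPM + 1), with positive values higher in CD4SP. They were tested with limma over 10476 genes that reached 1 TPM in 3 or more libraries, with Benjamini-Hochberg adjustment over all of them, and a gene was called at an adjusted p under 0.05 and a difference over 2-fold, the study's own limits. The study applied these limits with DESeq2 to iT cells against natural T cells, so its test and comparison were different. The libraries themselves differed. Transcripts of 80 ribosomal protein genes took 24.8% to 29.7% of TPM in CD4SP against 33.0% to 36.9% in CD8SP libraries, and 10329 to 10649 genes reached 1 TPM in CD4SP against 9971 to 10149 in CD8SP. Over all tested genes the fold changes had a median of 0.28, so a typical gene was listed higher in CD4SP. The T cell markers matched the label, with the summed level of 7 T cell genes at 7210 to 7328 TPM in CD4SP against 5967 to 6764 TPM in CD8SP, and the depth of the libraries is unknown because TPM keeps none.

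All 10 class I genes passed the filter on low values, and all 10 had a positive fold change in CD4SP over CD8SP. Of them, 6 (H2-K1, H2-D1, B2m, Tap1, Tap2 and Tapbp) rose at an adjusted p under 0.05 (limma), none by more than 2-fold, and the same number passed at an unadjusted p under 0.05, as did 37.1% of all tested genes in either direction. Over all tested genes, 17.6% were higher in CD4SP at that adjusted p and 3.23% were higher in CD8SP. With the 2-fold limit, 0 of the 10 were called by limma, against 7.92% of all genes called higher in CD4SP and 1.8% called higher in CD8SP. The 3 CD4SP libraries lay above the 3 CD8SP libraries for these 6 genes, a pattern that 36.6% of all tested genes had. H2-K1, B2m and Tap1 passed in each of the 6 fits that left out a library. Tapbp was lost without CD8SP replicate 1 or 2, H2-D1 was lost without these and without CD4SP replicate 1 or CD8SP replicate 3, and Tap2 passed only without CD4SP replicate 3, which left between 3 and 7 members past the adjusted p. The members' median fold change was 0.56, beside 0.28 over all tested genes. When TPM was rescaled by median of ratios, which brings the median of all genes to 0.000155, the members' median was 0.25 and none of the 10 passed limma's adjusted p under 0.05.

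**Figure D1:**
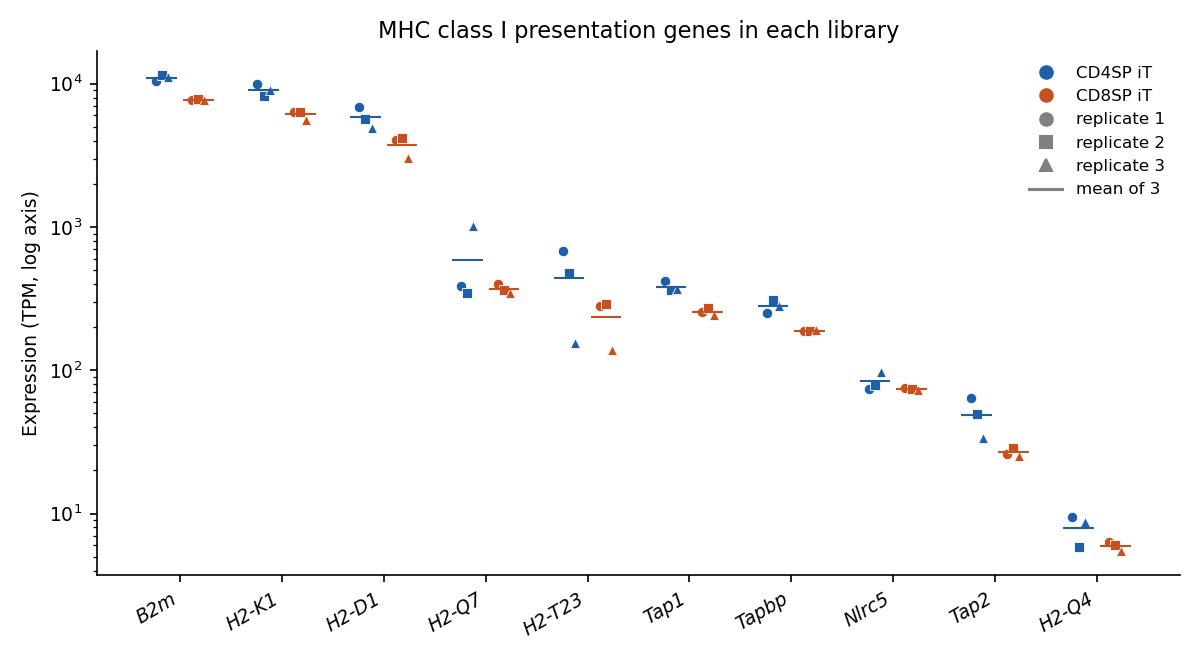
Expression of the 10 MHC class I presentation genes in TPM on a log axis, with CD4SP libraries in blue and CD8SP libraries in orange, symbols for replicate numbers and a line at each mean of 3. The 3 CD4SP values lie above the 3 CD8SP values for H2-K1, H2-D1, B2m, Tap1, Tap2 and Tapbp, and overlap with them for the other 4 genes.

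B2m, the light chain shared by the class I molecules, had the highest level. It was listed at 10438, 11578 and 11081 TPM in CD4SP replicates 1 to 3 and at 7638, 7800 and 7670 TPM in CD8SP. The populations did not overlap, and the CD8SP values were close together, with a mean of 7702 ± 85.8 TPM (SD, n = 3) against 11032 ± 572 TPM (SD, n = 3) in CD4SP. B2m was the third most abundant transcript in every CD4SP library and ranked 13 to 16 in CD8SP. Its log2 fold change was 0.52 (SE 0.0931, 95% interval 0.30 to 0.73, limma adjusted p 0.00673). The study's quality check of the amplified cDNA was a qPCR of B2m and Gapdh, so B2m was also looked at when libraries were made.

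The classical heavy chain H2-K1 was listed at 9906, 8166 and 8981 TPM in CD4SP and at 6361, 6393 and 5536 TPM in CD8SP. Every CD4SP library was higher, and the log2 fold change was 0.56 (SE 0.114, 95% interval 0.30 to 0.82, limma adjusted p 0.0108). H2-K1 ranked 4 to 8 among all transcripts in CD4SP and 21 to 36 in CD8SP. H2-D1, the other classical chain of the C57BL/6 haplotype, was listed at 6930, 5634 and 4878 TPM in CD4SP and at 4071, 4189 and 3016 TPM in CD8SP. It was more spread than H2-K1 in both populations, which did not overlap, with a log2 change of 0.63 (SE 0.170, 95% interval 0.24 to 1.02, limma adjusted p 0.0328). In both populations the order of levels was B2m, then H2-K1, then H2-D1, with no overlap between neighbours in that order. The next gene in the order, H2-Q7, had means of 583 TPM in CD4SP against 371 TPM in CD8SP, and in CD4SP its values overlapped those of H2-T23 and Tap1.

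The nonclassical chains did not share this spacing. H2-T23, whose product Qa-1 presents leader peptides of other class I chains to NK receptors, was listed at 682, 474 and 155 TPM in CD4SP and at 280, 288 and 137 TPM in CD8SP. The replicate 3 library was the lowest of its population in both, and the populations overlapped. The log2 fold change was 0.72 with a wide 95% interval of -0.44 to 1.89 (SE 0.509, limma adjusted p 0.331). Without CD4SP replicate 3 it was 1.35 and passed the call (limma adjusted p 0.0465). H2-Q4 was the lowest of the 10, at 9.39, 5.84 and 8.68 TPM in CD4SP against 6.29, 6.07 and 5.48 TPM in CD8SP. These values overlapped, with a log2 change of 0.35 (95% interval -0.18 to 0.87, limma adjusted p 0.304), and it fell to -0.028 under quantile normalization.

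H2-Q7 was listed at 389, 347 and 1015 TPM in CD4SP and at 403, 364 and 348 TPM in CD8SP. A single library, CD4SP replicate 3, stood above the other 5, which all lay between 347 and 403 TPM. The log2 fold change was 0.47 (95% interval -0.33 to 1.28, limma adjusted p 0.356), and -0.014 without that library. RefSeq lists Qa-2 as a synonym of H2-Q7, H2-Q8 and H2-Q9, and the row of H2-Q9 mirrored that of H2-Q7. H2-Q9 was at 1074, 941 and 387 TPM in CD4SP and at 1060, 1056 and 930 TPM in CD8SP, so it was low in the library where H2-Q7 was high. H2-Q7 took 72.4% of the sum of both in CD4SP replicate 3 and 25.6% to 27.5% in the other 5 libraries.

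The sum of H2-Q7 and H2-Q9 was flat across the libraries. It was 1463, 1287 and 1402 TPM in CD4SP against 1463, 1419 and 1277 TPM in CD8SP. The means were 1384 ± 89.2 and 1386 ± 96.9 TPM (SD, n = 3 each). As deposited, the log2 fold change of the sum was -0.0021 (SE 0.104, limma adjusted p 0.990). The sum under the other scalings, and its difference from other members, were not tested. H2-Q6 and H2-Q8 also varied against each other at a lower level, but not in the same libraries. H2-Q6 took 0%, 95.7% and 97.9% of their sum in CD4SP replicates 1 to 3 and 57.0% to 60.1% in CD8SP. H2-Q6 was listed at 0, 90.6 and 121 TPM in CD4SP where H2-Q8 was at 142, 4.08 and 2.57 TPM, and in CD8SP both lay between 46.0 and 71.0 TPM. Their sum was 142, 94.7 and 124 TPM in CD4SP against 115, 125 and 115 TPM in CD8SP, with a log2 change of 0.0042 (SE 0.160, limma adjusted p 0.987). These pairs were formed after the values were seen. How reads were shared among similar genes is not given in the sources used here, and neither H2-Q8 nor H2-Q9 had an entry in the annotation used to measure similarity, so each of these 4 rows is uncertain on its own.

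**Figure D2:**
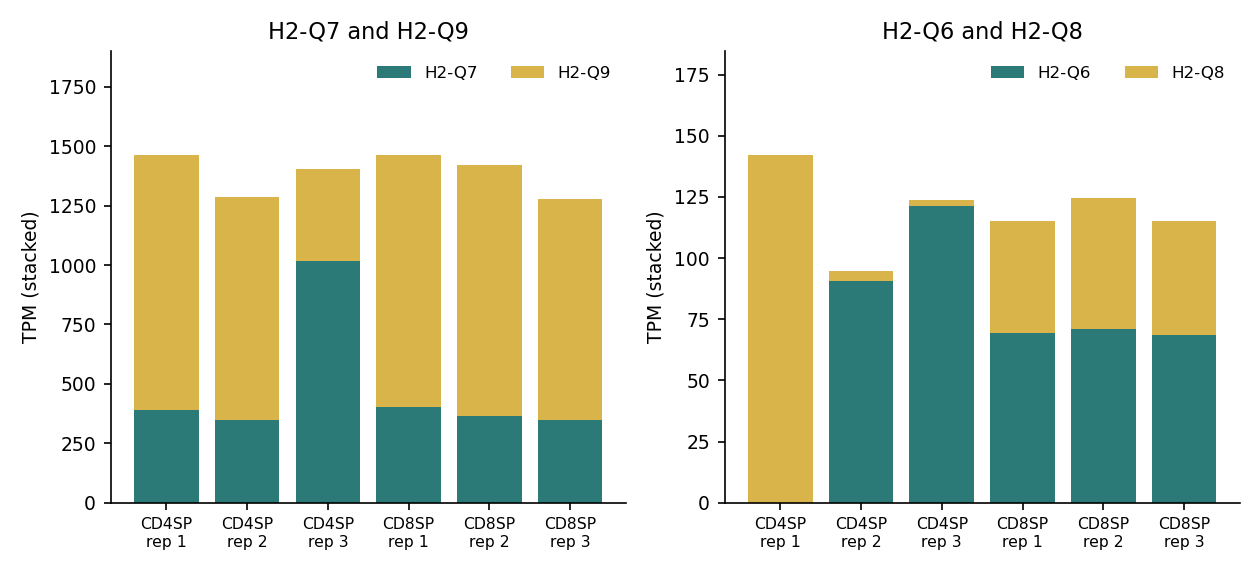
TPM of H2-Q7 stacked with H2-Q9 (left) and of H2-Q6 stacked with H2-Q8 (right) in each of the 6 libraries, on linear axes that start at 0. The split between the genes moves in CD4SP libraries, while the H2-Q7 with H2-Q9 total stays between 1277 and 1463 TPM.

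The peptide transporter and its partner were higher in CD4SP without overlap. Tap1 was listed at 421, 362 and 370 TPM in CD4SP and at 256, 270 and 244 TPM in CD8SP, a log2 change of 0.58 (SE 0.110, 95% interval 0.33 to 0.83, limma adjusted p 0.00865). Tap2, the other subunit, was far lower, at 63.7, 49.6 and 33.7 TPM in CD4SP against 26.2, 28.7 and 25.3 TPM in CD8SP. Its CD4SP values were spread while the CD8SP values were tight, and the log2 fold change of 0.81 was the largest of the 10 (SE 0.225, 95% interval 0.29 to 1.32, limma adjusted p 0.0372). Without CD4SP replicate 3 it was 1.05 and passed the call (limma adjusted p 0.0133). Tapbp, the bridge between transporter and heavy chain, was listed at 251, 307 and 280 TPM in CD4SP and at 189, 187 and 191 TPM in CD8SP, with a log2 change of 0.56 (SE 0.114, 95% interval 0.30 to 0.82, limma adjusted p 0.0116).

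Nlrc5 did not pass the test. It was listed at 74.5, 79.2 and 97.7 TPM in CD4SP and at 75.1, 74.5 and 72.2 TPM in CD8SP. The lowest CD4SP library lay inside the CD8SP range, so the populations overlapped. The log2 fold change was 0.17 (SE 0.139, 95% interval -0.15 to 0.48, limma adjusted p 0.404), the smallest of the 10, and its sign turned to -0.14 under median-of-ratios rescaling and -0.074 under quantile normalization.

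How far the 6 results depended on the scale of the libraries was measured with other scalings. With the ribosomal protein genes removed and TPM rescaled, the median of all genes was 0.14, the members' median was 0.40, and H2-K1 and Tap1 passed limma's adjusted p, where 11.2% of all genes were higher in CD4SP by that rule. After quantile normalization the median of all genes was -0.015, the members' median was 0.46, and H2-K1, H2-D1, B2m and Tap1 passed, where 8.05% of all genes did in that direction. Under median of ratios, 8.43% of all genes passed in that direction and no member did, although 9 of the 10 fold changes stayed positive. The scalings moved the most abundant members in opposite directions. Quantile normalization raised the log2 fold changes of H2-K1, H2-D1 and B2m to 0.77, 0.90 and 0.71 and lowered those of the other members. Median of ratios lowered these 3 to 0.26, 0.32 and 0.21. The 10 genes together took 2.92%, 2.71% and 2.70% of TPM in CD4SP against 1.93%, 1.96% and 1.73% in CD8SP. Leaving the ribosomal protein genes out of the total, the shares were 3.89%, 3.85% and 3.60% in CD4SP and 2.91%, 2.93% and 2.74% in CD8SP. Neither measure overlapped between the populations (exact two-sided permutation p 0.1 for each, the smallest that 3 libraries against 3 allow). The share of ribosomal protein transcripts separates the libraries the same way as the sort does, so its part in the difference and that of the population cannot be told apart, nor can more RNA per cell be told apart from more cells with a high level in bulk samples.

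**Figure D3:**
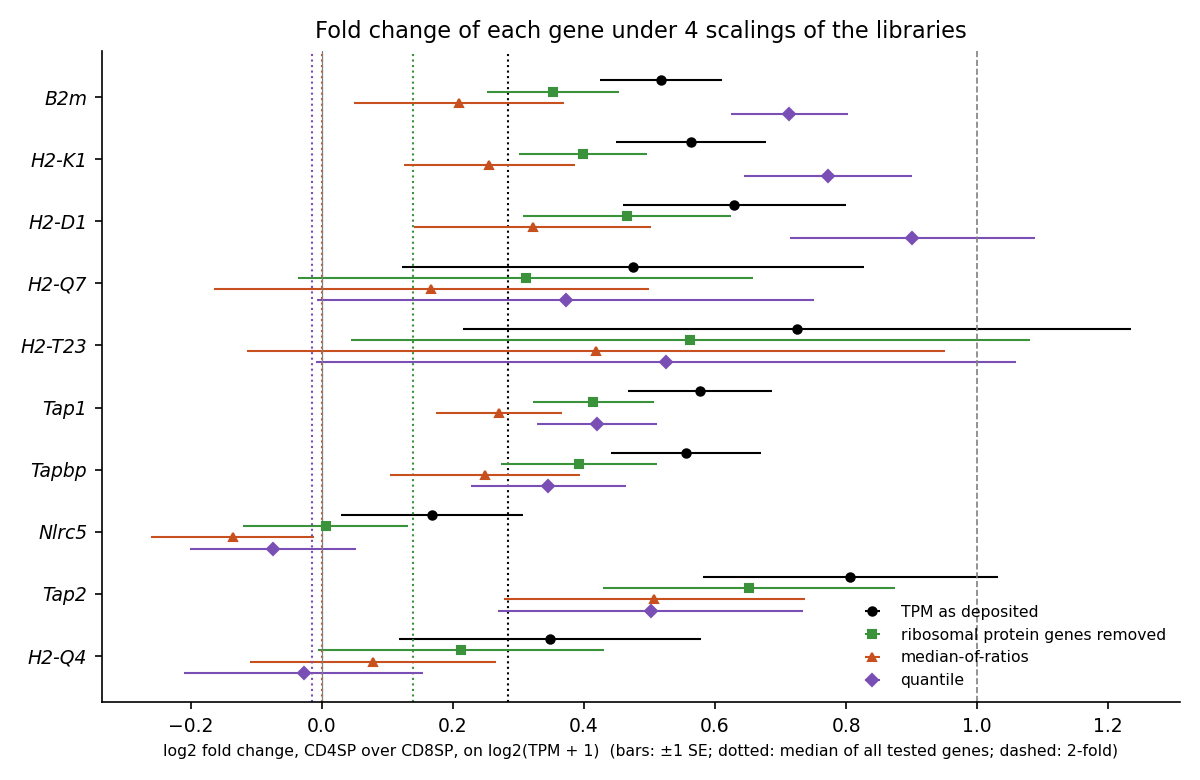
Log2 fold change of CD4SP over CD8SP for each gene on log2(TPM + 1), with bars of 1 SE, for TPM as deposited and 3 other scalings; dotted lines mark the median of all tested genes in each scaling and the dashed line marks 2-fold. The members' median is 0.56 as deposited and 0.25 under median of ratios, and Nlrc5 lies below 0 under median of ratios and quantile normalization.

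Ratios between members inside a library do not depend on its scale, and 3 were compared between the populations. None of these 3 differed beyond the spread, and other pairs were not tested. The summed heavy chains over B2m were 1.72, 1.26 and 1.36 in CD4SP and 1.46, 1.44 and 1.18 in CD8SP. The ranges overlapped (log2 difference 0.084, exact two-sided permutation p 0.7). H2-K1 over H2-D1 was 1.43, 1.45 and 1.84 in CD4SP and 1.56, 1.53 and 1.84 in CD8SP (log2 difference -0.066, exact two-sided permutation p 0.6). The replicate 3 library had the highest ratio in both populations. Tap1 over Tap2 was 6.60, 7.30 and 10.98 in CD4SP and 9.77, 9.41 and 9.66 in CD8SP (log2 difference -0.25, exact two-sided permutation p 0.4). These p-values are 3 in one family and none is under 0.1, the smallest that the design can reach (each 0.7 after Benjamini-Hochberg adjustment of the exact p). Of the summed TPM of the 5 member heavy chains, H2-K1 made up 55.3% to 59.7% in CD4SP and 56.9% to 61.2% in CD8SP, H2-D1 32.4% to 38.7% and 33.3% to 37.3%, and the nonclassical chains the rest. Other heavy-chain rows such as H2-Q9 are not in this sum. With all H2-K, H2-D, H2-Q, H2-T and H2-M rows summed over B2m, the log2 difference was 0.013, beside 0.084 with the member chains.

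**Figure D4:**
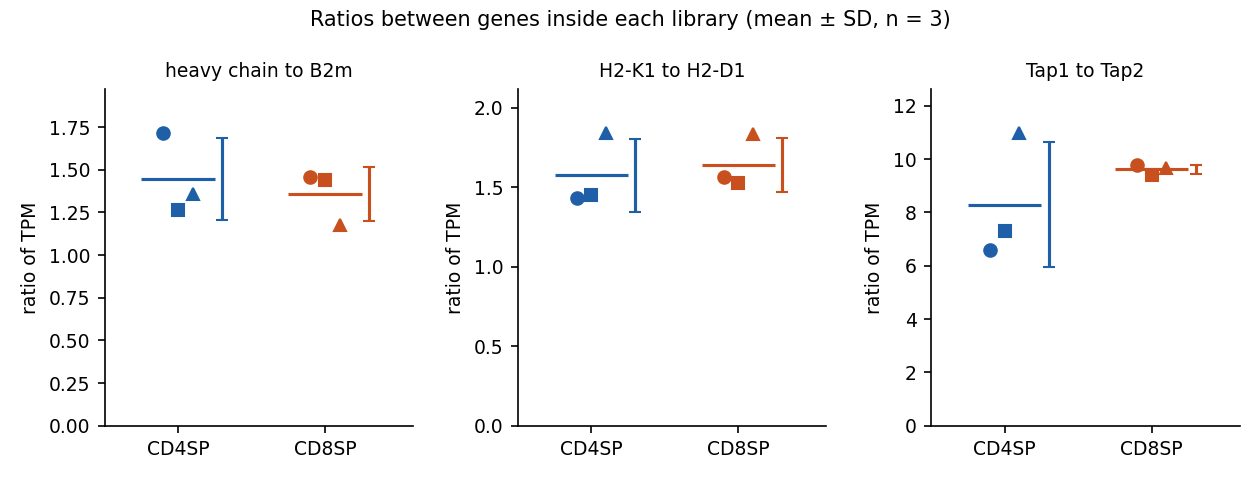
Ratios of TPM inside each library for the summed heavy chains over B2m, H2-K1 over H2-D1 and Tap1 over Tap2, with CD4SP in blue, CD8SP in orange, circles, squares and triangles for replicates 1 to 3, a line at each mean and a bar of 1 SD (n = 3). The populations overlap in all 3 ratios.

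Of the 10 genes, 8 lie in the MHC region of chromosome 17 or beside it. Coordinates are on GRCm38 (mm10, the assembly of the C57BL/6 strain that the stem cells share) from GENCODE M21, where each is a protein-coding gene. In order along the chromosome they are Tapbp (chr17:33915899-33929292, plus strand), H2-K1 (chr17:33996017-34000347, minus), Tap1 (chr17:34187553-34197225, plus), Tap2 (chr17:34203527-34216321, plus), H2-D1 (chr17:35262730-35267499, plus), H2-Q4 (chr17:35379617-35385290, plus), H2-Q7 (chr17:35439155-35443773, plus) and H2-T23 (chr17:36029773-36032855, minus). B2m (chr2:122147686-122153083, plus) and Nlrc5 (chr8:94434356-94527272, plus) lie outside it. The 5 genes of the region that rose run from Tapbp to H2-D1, and H2-Q4, H2-Q7 and H2-T23, which lie beyond H2-D1, did not pass. Psmb9 and Psmb8, which are not members, lie between H2-K1 and H2-D1 and did not pass either (limma adjusted p 0.0589 and 0.178). The members beyond H2-D1 are also the nonclassical chains, so position and type of chain cannot be told apart. The part of position was not tested. At 95% identity over 200 nt or more between any annotated transcripts, B2m, Tap2 and Nlrc5 matched no other gene, Tap1 matched Psmb9 over the 212 nt that both span, and Tapbp matched Gm19412 (100% over 307 nt). Every heavy chain matched other genes. H2-K1 matched 7, including H2-D1 (95.2% over 251 nt) and H2-Q7 (97.0% over 201 nt), H2-D1 matched 5, H2-T23 10, H2-Q7 11 and H2-Q4 32, so reads of any of these 5 could be shared with other genes over such stretches. Whether counting used strand is not given in the sources used here. On the opposite strand, B2m lies inside the span of Patl2 (0 to 2.13 TPM), Tap1 overlaps Psmb9 by 212 nt, and H2-T23 lies inside A930015D03Rik, which was at 7.35 to 21.2 TPM. On the same strand, Tapbp overlaps Zbtb22 by 3422 nt (13.7 to 24.4 TPM).

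The promoters show what the classical chains, H2-Q7, B2m and H2-T23 share and where they part, and are printed for that reason. The windows are RefSeq's on GRCm38.p6, from 250 bases before to 50 bases after a gene's start, and 8 of the 10 members had one. Tap2 and Nlrc5 are named only. The stretches below end at or before a RefSeq start, for H2-K1 the downstream one of 2. By the GENCODE spans given above, those of H2-D1 and H2-T23 lie inside the gene and that of H2-K1 reaches past its start. All run 5′ to 3′ on the gene's strand, and carry matches to 5 strings in capitals: GGGGATTCC (a kappa B site, bound by NF-kappa B), AGTGAAAC (an element bound by interferon regulatory factors), GAAANNGAA (a separate pattern, that of the interferon-stimulated response element), TGACG (the core of sites of CREB and ATF, as in the X2 box) and ATTGG (the CCAAT box, bound by NF-Y). Both strands were searched, so the printed letters can be the reverse complement, and the strings were chosen after the promoters were read.
H2-K1 promoter, chr17:34000334-34000466, minus strand: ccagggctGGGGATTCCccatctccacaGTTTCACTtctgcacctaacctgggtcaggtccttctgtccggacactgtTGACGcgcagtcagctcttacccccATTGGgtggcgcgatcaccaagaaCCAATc
H2-D1 promoter, chr17:35262915-35263053, plus strand: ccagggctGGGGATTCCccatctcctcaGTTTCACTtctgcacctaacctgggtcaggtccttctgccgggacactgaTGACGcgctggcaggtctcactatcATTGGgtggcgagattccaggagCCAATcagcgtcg
H2-Q7 promoter, chr17:35439014-35439151, plus strand: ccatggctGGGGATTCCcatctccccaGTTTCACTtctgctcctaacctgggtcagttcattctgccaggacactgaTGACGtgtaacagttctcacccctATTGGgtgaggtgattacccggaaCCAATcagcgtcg
B2m promoter, chr2:122147540-122147646, plus strand: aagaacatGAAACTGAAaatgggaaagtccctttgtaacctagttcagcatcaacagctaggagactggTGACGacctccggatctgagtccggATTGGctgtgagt
H2-T23 promoter, chr17:36032741-36032832, minus strand: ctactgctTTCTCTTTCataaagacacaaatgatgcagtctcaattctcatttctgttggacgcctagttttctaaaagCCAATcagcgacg

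The 3 heavy chains H2-K1, H2-D1 and H2-Q7 carry the kappa B string, the AGTGAAAC string, TGACG and ATTGG in the same order. The kappa B string begins 125 bases before the start in H2-K1 (in the window of its downstream RefSeq start), 171 before in H2-D1 and 133 before in H2-Q7. It occurs in 0.25% of the 32851 windows in the table, and AGTGAAAC, which H2-Q4 holds too, in 0.916%. B2m and H2-T23 hold GAAANNGAA and no AGTGAAAC, and GAAANNGAA is found in 8.56% of windows. The printed matches do not overlap each other. TGACG lies in 6 of the 8 member windows (H2-K1, H2-D1, B2m, H2-Q4, H2-Q7 and Tap1) and in 20.812% of all, and ATTGG in all 8 and in 37.408% of all. Among the printed genes, H2-K1, H2-D1 and B2m passed limma's adjusted p in CD4SP as deposited, and H2-Q7 and H2-T23 did not. The part of these strings in the levels was not tested.

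The other genes of the pathway were read from the same fit, by lists. Among 23 other class I and class I-like chains, 17 were tested, 2 were called with the higher level in CD4SP and 1 with the higher level in CD8SP (7.92% and 1.8% of all tested genes), with a median log2 fold change of 0.34, which was 0.054 under median of ratios and -0.013 under quantile normalization. Under both of these, 0 were called in favour of CD4SP and 2 in favour of CD8SP, the added gene being H2-Q10 (-1.11 and -1.16, beside -0.82 and no call as deposited, named after its value was seen). H2-T10, a nonclassical chain, was listed at 70.3, 22.1 and 58.9 TPM in CD4SP and at 20.3, 19.9 and 15.2 TPM in CD8SP (log2 fold change 1.26, limma adjusted p 0.0496). Mr1, which presents vitamin B metabolites to MAIT cells, was at 11.4, 10.3 and 14.0 TPM in CD4SP and at 5.82, 4.16 and 5.13 TPM in CD8SP (log2 fold change 1.10, limma adjusted p 0.0100). Under the 3 other scalings their fold changes were 0.96 to 1.11 and 0.72 to 0.99, and neither was called. Of the 6 fits that left out a library, H2-T10 was called only in that without CD4SP replicate 2 (0.95 to 1.76 over the 6), and Mr1 in all but those without CD4SP replicate 3 or CD8SP replicate 2 (0.98 to 1.19). Fcgrt, the heavy chain of the neonatal Fc receptor, went the other way, at 2.59, 8.87 and 1.98 TPM in CD4SP against 66.7, 65.1 and 69.3 TPM in CD8SP (log2 fold change -3.85, limma adjusted p 0.000528), and it was called under every scaling. H2-M3, which presents N-formylated bacterial peptides, was at 81.7 to 95.8 TPM in CD4SP against 65.7 to 71.2 TPM in CD8SP, without overlap but with an adjusted p of 0.0609 by limma. H2-T22, a ligand of gamma delta T cells, overlapped at 6.58 to 10.2 TPM and 6.48 to 18.4 TPM. H2-T10, annotated as a polymorphic pseudogene, and H2-T22 were 96.5% identical over 1703 nt, so the split of reads between these rows is uncertain.

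The machinery that supplies peptides and folds class I was read next, beside the 17.6% and 3.23% of all tested genes that passed the adjusted p in the direction of CD4SP and CD8SP. Of 9 loading and trimming factors of the endoplasmic reticulum, all tested, 0 were called by limma, the median was -0.0049 (-0.29 under median of ratios, -0.10 under quantile normalization and -0.16 with ribosomal protein genes removed), and 1 (Hspa5, the chaperone BiP, log2 fold change 0.52, named after its value was seen) passed an adjusted p under 0.05. With the replicate block and under each of the 3 other scalings, 0 of the 9 passed in favour of CD4SP. Calr, the chaperone calreticulin, was at 183, 154 and 190 TPM in CD4SP and at 134, 150 and 155 TPM in CD8SP (log2 fold change 0.26, limma adjusted p 0.176). It was -0.045 under median of ratios and 0.054 under quantile normalization. Pdia3, its oxidoreductase partner ERp57, had a log2 change of 0.36 (limma adjusted p 0.128), and the trimming peptidase Erap1 -0.12 (limma adjusted p 0.722). Of 9 proteasome subunits, 0 were called and 0 passed the adjusted p (limma), with 1 passing in favour of CD4SP in the fit by replicate block. Their median was 0.043, which turned to -0.26 under median of ratios and -0.091 under quantile normalization. At an unadjusted p under 0.05, 3 of the 9 proteasome subunits and 2 of the 9 loading factors passed in limma, beside the same 37.1% of all tested genes. The immunoproteasome subunit Psmb9, whose gene adjoins Tap1, was at 589, 594 and 419 TPM in CD4SP and at 397, 399 and 297 TPM in CD8SP (log2 fold change 0.55, limma adjusted p 0.0589), without overlap. Psmb8 was at 2463, 2061 and 2164 TPM against 2016, 1999 and 1570 TPM (0.27, limma adjusted p 0.178) and Psmb10 at 433, 399 and 322 TPM against 463, 445 and 368 TPM (-0.15, limma adjusted p 0.488). The fold change of Psmb8 was -0.043 under median of ratios and 0.41 under quantile normalization. None of the 3 immunoproteasome genes passed.

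Among 16 transcription regulators of class I, all fold changes were positive as deposited, with a median of 0.48. Of the 16, 6 passed an adjusted p under 0.05 and 3 were called (17.6% and 7.92% of all tested genes in that direction). Under median of ratios and under quantile normalization, 12 were positive and 4 negative, with medians of 0.19 and 0.15. In each, 4 were past the adjusted p in favour of CD4SP and 2 were called. Nfkb1, the p50 subunit of NF-kappa B, was at 125, 81.4 and 118 TPM against 43.3, 41.7 and 36.4 TPM (1.38, limma adjusted p 0.00174). Prdm1, the repressor Blimp-1, was at 13.5, 12.9 and 13.6 TPM against 3.67, 3.95 and 3.59 TPM (1.59, limma adjusted p 0.000998). Nfkb1 and Prdm1 were called under every scaling tried. Irf1, an activator of class I and Tap1, was at 401, 344 and 345 TPM in CD4SP and at 269, 277 and 186 TPM in CD8SP (0.59, limma adjusted p 0.0380). Rfx5, a DNA-binding partner of Nlrc5, was at 12.9, 11.9 and 14.9 TPM against 12.4, 11.2 and 8.94 TPM and did not pass (0.27, limma adjusted p 0.350). Its sign turned to -0.015 under median of ratios and -0.087 under quantile normalization.

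Of 7 genes of interferon gamma and its receptor pathway, 3 were called higher in CD4SP (7.92% of all tested genes), and 1, Ifngr2, was called under each of the 3 other scalings. The median was 0.73, and 0.43 under median of ratios, with 5 genes positive and 2 negative. The 2, named after their values were seen, were Jak1 (-0.32) and Ifng (-0.27), both lower in CD4SP without overlap (limma adjusted p 0.144 for each). Ifngr2, the signalling chain of the receptor, was at 9.22, 16.3 and 8.75 TPM in CD4SP and at 0.900, 2.01 and 1.27 TPM in CD8SP (log2 fold change 2.35, limma adjusted p 0.00158). Socs1, the feedback inhibitor, was at 34.1, 72.1 and 46.9 TPM against 27.1, 26.2 and 18.3 TPM (1.02, limma adjusted p 0.0329). Socs1 was called only without CD4SP replicate 1 among the fits that left out a library (0.74 to 1.27), and was 0.72 to 0.87 and not called under the other scalings. Of 20 interferon-induced genes, 3 were called in favour of CD4SP and 1 in favour of CD8SP, 8 and 1 passed the adjusted p alone, and the median was 0.61. Over all tested genes these shares were 7.92% and 1.8% called and 17.6% and 3.23% past the adjusted p. Under median of ratios 2 and 1 were called, 4 passed the adjusted p in favour of CD4SP, as did 8.43% of all genes, and the median was 0.31. The 3 higher in CD4SP encode GTPases, as do other genes of the list that were not called. The 3 called genes were Igtp at 472, 344 and 442 TPM against 181, 179 and 171 TPM (1.23), Irgm2 at 42.4, 49.9 and 49.1 TPM against 14.2, 14.7 and 14.9 TPM (1.62), and Iigp1 at 41.6, 38.2 and 39.1 TPM against 4.71, 3.95 and 4.47 TPM (2.92). Ifit3, an antiviral gene, was at 12.5, 6.78 and 21.9 TPM in CD4SP against 33.8, 36.7 and 32.0 TPM in CD8SP (-1.39). Their limma adjusted p-values were 0.000734, 0.00026, 2.37e-05 and 0.0247 in that order, and Igtp fell to 0.92, below 2-fold, under median of ratios. Ifit3 kept its call in 1 of the 6 fits that left out a library, that without CD4SP replicate 3 (-1.77 to -0.997 over the 6).

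**Figure D5:**
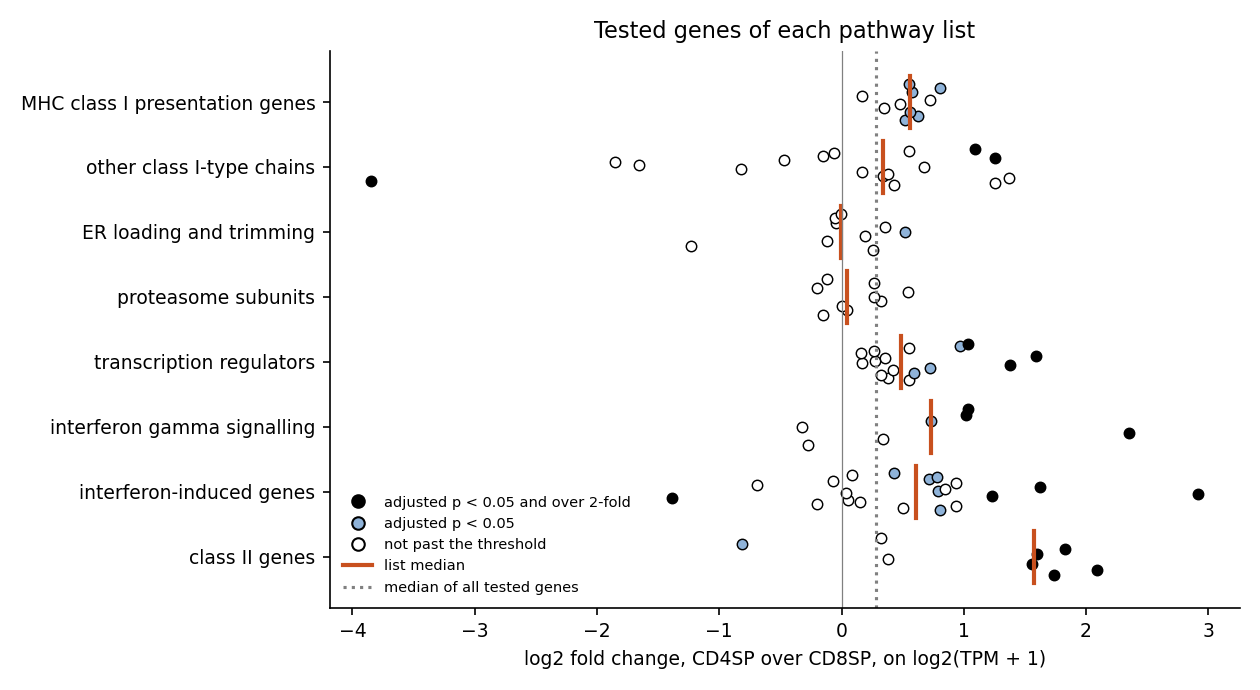
Log2 fold change of CD4SP over CD8SP for the tested genes of the 10 members and 7 pathway lists, filled black for genes called at an adjusted p under 0.05 and over 2-fold, blue for the adjusted p alone and white for the rest, with an orange line at each list's median and a dotted line at the median of all tested genes, 0.28. The loading factors and proteasome subunits have medians of -0.0049 and 0.043 as deposited, and the class II genes the highest, 1.58.

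Class II genes, which mouse T cells are not known to express strongly, were set beside the class I genes. Of 9, 8 were tested and 5 were called higher in CD4SP, beside 7.92% of all tested genes, with a median of 1.58. These 5 were also called under the 3 other scalings. H2-Oa, a chain of the inhibitor of peptide loading H2-O (named after its value was seen), was lower in CD4SP, at 50.5, 59.0 and 63.7 TPM against 107, 102 and 96.9 TPM (-0.82, limma adjusted p 0.00450), and was called under median of ratios and quantile normalization. Cd74, the invariant chain, was at 22.3, 17.4 and 27.2 TPM in CD4SP and at 6.01, 4.22 and 7.97 TPM in CD8SP (log2 fold change 1.73, limma adjusted p 0.00296). The class II chains H2-Aa (2.09), H2-Ab1 (1.56) and H2-Eb1 (1.83) had levels of 19.8 to 48.1 TPM in CD4SP against 3.88 to 13.3 TPM in CD8SP, without overlap (limma adjusted p 0.00610, 0.00143 and 0.00284), and H2-DMb1 was at 1.80 to 3.54 TPM against 0, 0.627 and 0 TPM, a call lost without CD8SP replicate 1. Ciita, the class II transactivator, was under 1 TPM in every library and was not tested. The summed level of 8 myeloid markers was 17.1 to 34.2 TPM in CD4SP against 5.28 to 13.9 TPM in CD8SP, with S100a8, S100a9 and Mpo at 0 in all 6 libraries. Lyz2 made up most of both, at 17.1 to 30.9 TPM and 3.64 to 8.33 TPM. The 6 B cell markers summed to 16.2 to 22.7 TPM and 21.3 to 24.5 TPM, with Ms4a1 and Pax5 at 0 in all, and the 6 dendritic cell markers to 3.86 to 8.49 TPM and 21.0 to 22.7 TPM, with Clec9a at 0 in all. Itgax alone was at 0 to 0.946 TPM in CD4SP libraries against 17.2 to 18.1 TPM in CD8SP libraries and made up most of the CD8SP sum. The 5 NK cell markers, which include Nkg7 of cytotoxic T cells, summed to 1828 to 2034 TPM and 6524 to 6971 TPM, with Ncr1 at 0 in all. The part of such cells in the class I or class II values was not tested.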

How the data were processed

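RNA from 1000-cell aliquots was amplified with the Discover-sc WTA Kit V2, and libraries were made with the TruePrep DNA Library Prep Kit V2. The authors aligned reads with HISAT2 to mm10, estimated levels with StringTie and deposited them as TPM, 1 column per library. TPM is relative within a library, so an abundant transcript class lowers all other values. The removal of duplicates and the use of strand are not given in the sources used here.

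Groups came from the sample titles. The table had 23420 rows (9818 at 0 throughout, 27 with names turned into dates). Genes that reached 1 TPM in 3 or more libraries (10476) were fitted as log2(TPM + 1), which understates changes of low genes, with limma 3.58.1 in R 4.3.3 (eBayes with trend) and population as the only term. TPM are not counts, so no count test was used. Ratios were tested with exact permutations (scipy 1.17.1). The fit was tested on simulated data. Similar transcripts were searched with blastn 2.17.0 between all GENCODE M21 transcripts of each gene and those of other genes, at 95% identity over 200 nt. Alternatives were a pseudocount of 0.1, other filters, 3 scalings, no trend, library weights, a replicate block, leaving out libraries, averaging CD8SP replicates 1 and 2, and summed H2-Q and H2-T rows.

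The members, lists and alternatives were chosen with earlier results of these data known. Sums of pairs of H2-Q rows, and the count of members at an adjusted p alone under the other alternatives, were added after the values were seen. Named genes were all members, every called gene of the lists, and H2-M3, H2-T22, H2-Q6, Calr, Pdia3, Erap1, Psmb8, Psmb9, Psmb10, Rfx5 and Irf1. A single gene of these lists is counted with its list and is not reported here. Other names were chosen after their values were seen.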

Additional observations from a re-analysis of the deposited data

How the results depend on the processing

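Of the 10 members, 0 were called with the 2-fold limit and 6 by limma's adjusted p under 0.05 alone. Leaving out each library in turn gave 0 to 2 called members, the 2 being H2-T23 and Tap2 without CD4SP replicate 3. The count at the adjusted p alone was 0 under median-of-ratios rescaling, 2 with ribosomal protein genes removed, 3 with CD8SP replicates 1 and 2 averaged, and 3 to 7 leaving out each library, with 3 without CD8SP replicate 1 and 3 without CD8SP replicate 2. In those runs with 3, H2-K1, B2m and Tap1 remained and H2-D1, Tap2 and Tapbp were lost. CD8SP replicates 1 and 2 lay close together and apart from replicate 3. Their ribosomal protein shares were 33.4% and 33.0% beside 36.9%, and H2-T23 was at 280 and 288 TPM beside 137 TPM. The main fit counts them as separate libraries, and whether they are independent is not given in the sources used here. The count was 4 with no filter, with no trend and under quantile normalization, and 6 with a pseudocount of 0.1, a filter of 5 TPM, library weights or summed H2-Q and H2-T rows. Signs turned for H2-Q4 under quantile normalization (-0.028), for Nlrc5 under median of ratios (-0.14) and quantile normalization (-0.074), and for H2-Q7, which ranged from -0.014 to 0.76 leaving out each library. The ratio of heavy chains to B2m ranged from -0.047 to 0.17 (log2) and that of H2-K1 to H2-D1 from -0.18 to 0.017 leaving out each library, and that of Tap1 to Tap2 from -0.47 (without CD4SP replicate 3) to -0.10 (without CD4SP replicate 1), beside -0.25 in all libraries. The cause was not tested. Of 17 called genes of the other lists, 11 were called in each of the 6 fits that left out a library. H2-T10, Socs1 and Ifit3 were called in 1 of them, Mr1 in 4 and H2-DMb1 in 5, with signs kept throughout.

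The labels do not say that equal replicate numbers share a mouse, so the numbers were not taken as pairs in the main fit. Over all tested genes, the deviations of equal replicate numbers correlated at 0.0515, -0.0168 and 0.0887 for replicates 1 to 3. With the replicate block, 6 members passed the adjusted p, and the smallest p of the ratios was 0.5. The block lowered the SE of H2-T23 from 0.509 to 0.207 and its limma adjusted p from 0.331 to 0.0509. The depth of the libraries is unknown, so the precision of low rows such as H2-Q4 rests on 3 libraries per population.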
